A study of Mus musculus with 4 samples.

Results

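The LIF receptor and STAT3 pathway genes described here are Lifr, Il6st, Jak1, Stat3, Socs3, Socs2, Junb, Gbx2 and Bcl3. They were chosen by name, as the pathway known to induce Pim genes in embryonic stem cells (ESCs), and all 9 stood among the 55418 genes of the count table. Raw RNA-seq counts were available for 4 libraries, 2 from wild type (WT) cultures and 2 from Pim3-/- lines, which the study describes as 2 clones made with CRISPR/Cas9. Both groups were E14 ESCs of the strain given as 12910la, kept on gelatin in serum with LIF at 10 ng/ml, so that the pathway's ligand was supplied to every culture. Which replicate number stands for which clone is not stated.

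LIF is a cytokine that holds mouse ESCs in self-renewal. It binds its receptor LIFR, which pairs with the shared signal transducer gp130, the product of Il6st. Kinases bound to the receptors, JAK1 foremost in ESCs, then phosphorylate STAT3, which enters the nucleus and switches on target genes. Among these are Socs3, whose product shuts the receptor complex down again, the AP-1 subunit Junb, the homeobox gene Gbx2 and Bcl3, which encodes a nuclear IκB protein. Socs2 encodes another suppressor of cytokine signalling, best known for restraining growth hormone receptors. Pim1 and Pim3 are themselves described as targets of this pathway.

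The gene table held between 22029427 and 25668307 counts per library, and a count of 0 allows up to 3 counts, or 0.112 to 0.157 CPM (counts relative to library size after scaling by TMM, the trimmed mean of M values), for counting error only. Each library was counted as 1 replicate, and p-values measure the spread between 2 cultures and 2 clones, the spread of each gene being moderated over all tested genes. The Pim3-/- libraries came from derived clones and the WT libraries from cultures, so clone derivation coincided with genotype, and its part was not tested. The targeted gene, Pim3, was counted 4392 and 4953 times in WT, against 4970 and 4804 times under the label Pim3-/-. Its count covers the whole gene and not the mutated sites alone, so that it does not check the labels, and directions below are those between the libraries as labelled. All 8 ESC markers examined were expressed, with a summed level of 9330 to 10400 CPM in WT and 6390 to 6660 CPM in Pim3-/- ESCs, and 3 of them, Pou5f1, Nanog and Dppa5a, were lower at an adjusted p under 0.05. The paper instead reports Nanog as upregulated in Pim3-/- ESCs, citing qPCR and a western blot, and Oct4 (Pou5f1) expression as not disrupted. In the counts used here, Nanog was at a mean of 940 CPM in WT and 504 CPM in Pim3-/- ESCs. Of the ESC markers not called, Sox2, Fgf4 and Tdgf1 lay above WT in both Pim3-/- libraries (log2 fold changes 0.38, 0.50 and 0.33). Zfp42 lay below WT (-0.48) and Esrrb overlapped (0.03). The largest falls in mean CPM were those of Dppa5a (3966 to 2030) and Pou5f1 (2247 to 1030). Of 7 primitive endoderm markers, 6 were tested and all 6 were higher, their sum being 2.98 to 5.12 CPM in WT and 18.7 to 33.8 CPM in Pim3-/- ESCs, with Foxa2 at 0 counts in both WT libraries. Sox17 and Dab2 rested largely on Pim3-/- replicate 1. Sox17 was counted 1 and 5 times in WT, against 85 and 10 times in Pim3-/- ESCs, and Dab2 4 and 17 against 189 and 46. Trophoblast markers summed to 63.9 to 65.5 CPM against 49.9 to 81.9 CPM with 2 of 4 tested genes higher, neuroectoderm markers to 18.2 to 20.2 CPM against 27.7 to 43.5 CPM with 1 of 4 higher, fibroblast markers to 27.7 to 28.2 CPM against 44.8 to 49 CPM with 1 of 3 higher, and mesoderm markers to 1.5 to 1.88 CPM against 1.51 to 1.61 CPM. Most of the trophoblast sum was Tfap2c, which was not called, at a mean of 59.8 CPM in WT and 45.6 CPM in Pim3-/- ESCs. The higher genes there were Eomes (3.46 to 16.4 CPM) and Gata3 (0.19 to 0.95 CPM), and Hand1 was not called (0.92 to 2.53 CPM). Among the fibroblast markers, Dcn was at 0 counts in the WT libraries and Col3a1 in the Pim3-/- libraries. The part of these markers in the results below was not tested, and in bulk RNA fewer cells of a type and less RNA per cell cannot be told apart.

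In Pim3-/- ESCs the inhibitor gene Socs2 and the target genes Junb and Gbx2 were lower. The target genes Socs3 and Bcl3 were not called, nor were the receptor, kinase and STAT3 genes. Socs2, Junb and Gbx2 were lower in Pim3-/- ESCs, by 2.03-fold, 2.07-fold and 1.66-fold, and Lifr, Il6st, Jak1, Stat3, Socs3 and Bcl3 did not pass an adjusted p of 0.05 (quasi-likelihood test of edgeR, Benjamini-Hochberg adjusted over 18444 tested genes). Thus 3 of the 9 genes were called lower, or 33.3%, where 16.2% of all tested genes were, and 0 were called higher, where 17.6% of all tested genes were. The share called lower depended on the level of a gene, and it was 26.3% of the genes at a mean log2 CPM of 5 to 6, where most of the 9 lay, 36% at 6 to 7 and 10.7% at 3 to 4, where Gbx2 lay. It was 46.3% at 7 to 8 and 54.4% from 8 upward, and Socs3 lay near the border of these, at a mean of 258 CPM in WT. Of the 9, 1 further gene, Il6st, had an unadjusted p under 0.05 with a positive fold change, and the Wald test of DESeq2 also called 0 higher and 3 lower. The median log2 fold change was -0.03 for the 9 genes and 0.07 for all tested genes.

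**Figure D1:**
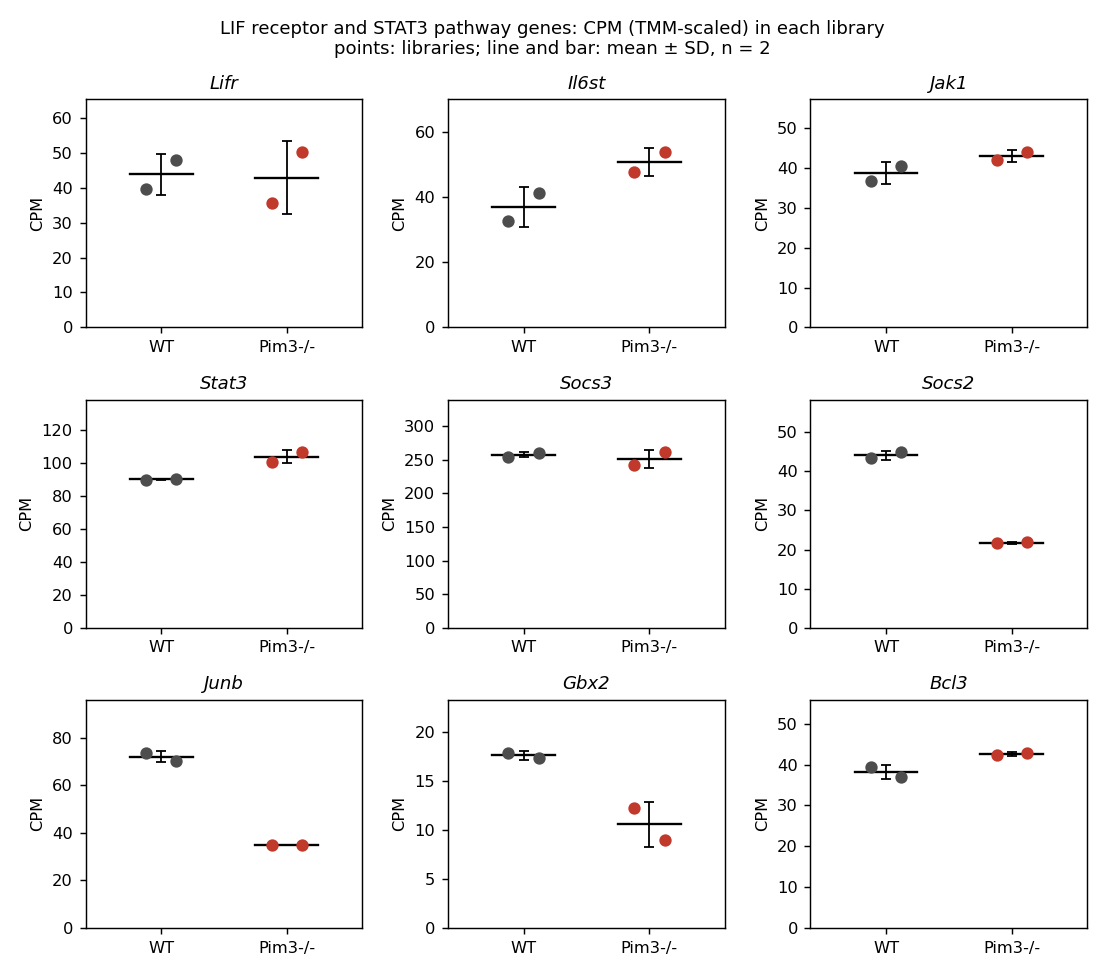
CPM (TMM-scaled counts relative to library size, linear axes from 0) of the 9 genes in each of the 4 libraries, with the mean and SD of 2 libraries per group. The points of Socs2, Junb and Gbx2 lay lower in both Pim3-/- libraries than in both WT libraries, and those of Lifr and Socs3 overlapped.

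The receptor chains were considered first. Lifr (chr15:7090614-7197489 of GRCm38, plus strand) was counted 759 and 1083 times in WT, against 946 and 1292 times in Pim3-/- ESCs, or 39.6 and 47.8 CPM against 35.4 and 50.1 CPM. The groups overlapped, and the Pim3-/- libraries lay on either side of the WT pair. The means were 43.7 CPM ± 5.79 (SD, n = 2) and 42.8 CPM ± 10.4 (SD, n = 2), with a log2 fold change of -0.03 (SE, standard error, = 0.21, adjusted p = 0.92 in edgeR). Its sign was not stable and turned positive in 5 of 12 settings, for example at 0.42 when library totals replaced TMM factors.

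Il6st (chr13:112464070-112510086, plus strand), which encodes the gp130 chain shared by the IL-6 family, was counted 628 and 939 times in WT, against 1276 and 1390 times in Pim3-/- ESCs. In CPM this was 32.8 and 41.5 against 47.8 and 53.9, so that both Pim3-/- libraries lay above both WT libraries. The log2 fold change came to 0.45 (SE = 0.18, adjusted p = 0.0906 in edgeR). The call depended on the setting: it passed with library totals (0.90, adjusted p = 0.0104), without Pim3-/- replicate 1 (0.54, adjusted p = 0.000659), without Pim3-/- replicate 2 (0.36, adjusted p = 0.028) and after cyclic loess normalization in limma (0.66, adjusted p = 0.0379). The fits without a Pim3-/- library take the spread from the WT pair alone and called 5383 and 4844 genes higher, against 3246 with all libraries. Without WT replicate 1 Il6st was at 0.32 (adjusted p = 0.541) and without WT replicate 2 at 0.62 (adjusted p = 0.214). The fold change was above 0 in all 12 settings. Within a library, the count ratio of Lifr to Il6st does not depend on scaling by 1 factor per library, and it was 1.21 and 1.15 in WT against 0.741 and 0.929 in Pim3-/- ESCs.

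The genes of the kinase and of STAT3 itself did not pass the test with TMM factors. Jak1 (chr4:101152367-101265282, minus strand) was counted 703 and 920 times in WT, against 1118 and 1134 times in Pim3-/- ESCs, or 36.7 and 40.6 CPM against 41.9 and 44 CPM. Stat3 (chr11:100885098-100939540, minus strand) had 1719 and 2046 counts against 2691 and 2743, or 89.8 and 90.4 CPM against 101 and 106 CPM. For both genes the Pim3-/- libraries lay above the WT libraries, but the test, which draws the spread of a gene partly from all tested genes, did not call them. The replicates of Stat3 were close, with an SD of 0.42 CPM in WT and 3.95 CPM in Pim3-/- ESCs (n = 2). The log2 fold changes were 0.15 for Jak1 (SE = 0.16, adjusted p = 0.49 in edgeR) and 0.20 for Stat3 (SE = 0.16, adjusted p = 0.35). With library totals, which raised the median of all genes by 0.45, both were called higher, at 0.60 and 0.65 (adjusted p = 0.0297 and 0.019). Set against the median of all genes, the values were 0.08 and 0.13 with TMM factors and 0.08 and 0.14 with library totals, but over all 12 settings they ran from -0.15 to 0.32 for Jak1 and from -0.10 to 0.57 for Stat3. The highest value of Stat3 was that after cyclic loess normalization, where it was called higher (0.58 before the median is subtracted, adjusted p = 0.0309 in limma).

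Socs3, the feedback inhibitor whose transcription follows STAT3 activity, had the highest counts of the 9 genes. It lies at chr11:117966079-117970047 on the minus strand and was counted 4882 and 5895 times in WT, against 6468 and 6736 times in Pim3-/- ESCs. In CPM these libraries were at 255 and 260 against 242 and 261, and the groups overlapped. The log2 fold change was -0.03 (SE = 0.17, adjusted p = 0.898 in edgeR). Its sign turned positive in 4 of 12 settings, reaching 0.42 with library totals and 0.53 after cyclic loess normalization, where it passed the threshold (adjusted p = 0.0479 in limma). Among tested genes near the level of Socs3, the median log2 fold change was -0.57 at a mean log2 CPM of 7 to 8 and -0.73 from 8 upward. In counts of the same library, Socs3 stood at 2.84 and 2.88 times Stat3 in WT and at 2.4 and 2.46 times Stat3 in Pim3-/- ESCs. The tested genes whose pattern over the 4 libraries was nearest to that of Socs3, among 1142 genes within 2-fold of its mean level, were Csnk1a1, Srpr and Usp28, with root mean square differences of 0.037, 0.043 and 0.043 in centred log2 CPM. For Lifr, among 4804 such genes, they were Gprasp1, Lpar2 and Vps13b, at 0.019, 0.030 and 0.035.

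Socs2 was lower in both Pim3-/- libraries. It lies at chr10:95385362-95417180 on the minus strand and was counted 830 and 1016 times in WT, against 576 and 563 times in Pim3-/- ESCs. In CPM it fell from 43.3 and 44.9 to 21.6 and 21.8, with means of 44.1 ± 1.08 (SD, n = 2) and 21.7 ± 0.18 (SD, n = 2). The groups did not overlap, and the log2 fold change was -1.02 (SE = 0.16, adjusted p = 0.00579 in edgeR). The count ratio of Socs2 to Socs3 was 0.17 and 0.172 in WT against 0.0891 and 0.0836 in Pim3-/- ESCs, a difference of -0.99 in mean log2 ratio. Scaling by 1 factor per library does not change this difference. Cyclic loess normalization is not such a factor, and it put the log2 fold change at -0.91 for Socs2 and 0.53 for Socs3.

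Junb was also lower in Pim3-/- ESCs. Its gene at chr8:84974484-84978718 (minus strand) was counted 1414 and 1596 times in WT, against 931 and 900 times in Pim3-/- ESCs, or 73.8 and 70.5 CPM against 34.9 and 34.9 CPM. The means were 72.2 CPM ± 2.37 (SD, n = 2) and 34.9 CPM ± 0.021 (SD, n = 2), and the log2 fold change was -1.05 (SE = 0.16, adjusted p = 0.00531 in edgeR). Both Pim3-/- libraries were below both WT libraries, and the count ratio of Junb to Stat3 was 0.823 and 0.78 in WT against 0.346 and 0.328 in Pim3-/- ESCs. Of the 2301 exon bases of Junb, 173 are shared with Prdx2, a peroxiredoxin gene on the opposite strand. Prdx2 was counted 11574 and 12106 times in WT, against 5552 and 4804 times in Pim3-/- ESCs and was itself lower (log2 fold change -1.53, adjusted p = 0.00395 in edgeR). Whether counting used strand is not stated, so reads on the shared bases cannot be told apart.

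Gbx2, which can sustain ESC self-renewal when overexpressed, had the fewest counts of the 9 genes. The gene lies at chr1:89927956-89931179 (minus strand) and was counted 342 and 391 times in WT, against 325 and 230 times in Pim3-/- ESCs. In CPM it was at 17.9 and 17.3 in WT and at 12.2 and 8.92 in the Pim3-/- libraries, which differed more from each other than the WT libraries did but stayed below them. The log2 fold change was -0.73 (SE = 0.23, adjusted p = 0.0419 in edgeR). It lost the call with library totals (-0.28, adjusted p = 0.364) and when each library had to hold at least 10 counts (-0.66, adjusted p = 0.0644), and it remained negative in all 12 settings. Of its 2177 exon bases, 946 are shared with D130058E05Rik on the opposite strand, which was counted 219 and 237 times in WT, against 246 and 184 times in Pim3-/- ESCs (log2 fold change -0.42, adjusted p = 0.21 in edgeR). The Gbx2 count is therefore uncertain where strand is not known.

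The calls of all 3 lower genes rested on having both WT libraries. Without WT replicate 1 the adjusted p was 0.104 for Socs2, 0.099 for Junb and 0.307 for Gbx2, and without WT replicate 2 it was 0.0794, 0.062 and 0.221, with log2 fold changes of -1.02, -0.99 and -0.69 and of -1.01, -1.09 and -0.77. With 1 WT library the spread comes from the Pim3-/- pair alone, the lone library being assumed to vary alike, and only 30 and 195 of the 18444 genes were then called at all. With 1 Pim3-/- library left out, all 3 remained called, but the spread then comes from the closer WT pair alone, and 5139 genes without replicate 1 and 4723 without replicate 2 were called lower in those fits, against 2987 with all libraries. Socs2 and Junb were also called lower with library totals, where 5.92% of all tested genes were.

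Bcl3 (chr7:19808462-19822770, minus strand), a STAT3 target that acts with NF-κB subunits, was counted 757 and 839 times in WT, against 1129 and 1108 times in Pim3-/- ESCs. It was at 39.5 and 37 CPM against 42.3 and 43 CPM, giving a log2 fold change of 0.16 (SE = 0.16, adjusted p = 0.466 in edgeR). The Pim3-/- libraries lay just above the WT libraries, and the gene passed with library totals (0.61, adjusted p = 0.0231). Of the 2475 exon bases of Bcl3, 161 are shared with Gm16175 on the opposite strand, where reads cannot be told apart either. Gm16175 itself was not called (log2 fold change 0.055, adjusted p = 0.874 in edgeR). The count ratio of Bcl3 to Stat3 was 0.44 and 0.41 in WT and 0.42 and 0.404 in Pim3-/- ESCs, so the groups overlapped. With TMM scaling, Il6st, Jak1, Stat3 and Bcl3 were the 4 of 9 genes with both Pim3-/- libraries above both WT libraries, a pattern that 38.3% of all tested genes showed, and Socs2, Junb and Gbx2 were the 3 with the opposite pattern, shown by 34.2%.

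**Figure D2:**
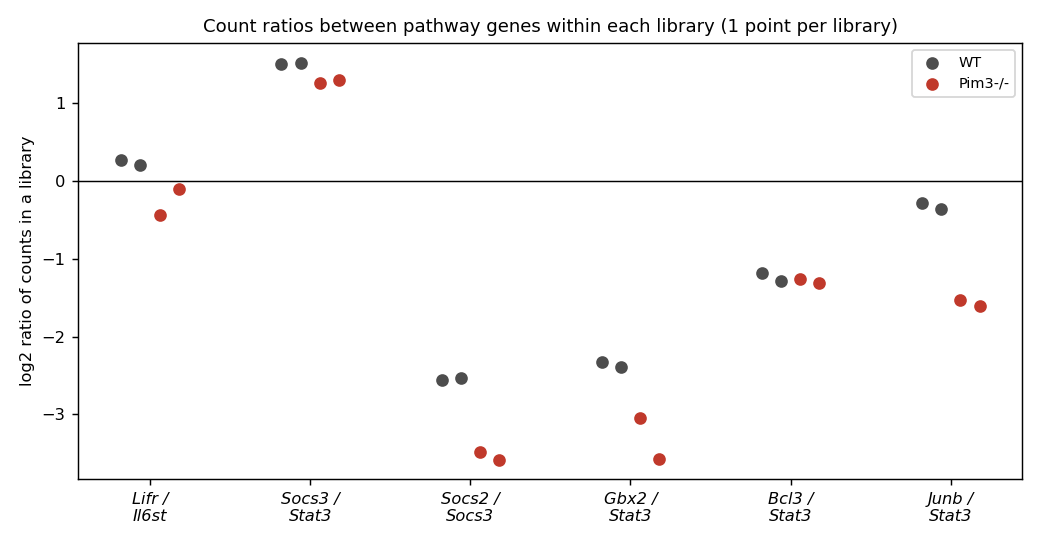
Log2 ratios of counts between pairs of the genes within each library, 1 point per library and independent of scaling by 1 factor per library. Socs2 relative to Socs3, and Gbx2 and Junb relative to Stat3, lay lower in both Pim3-/- libraries, by 0.99, 0.95 and 1.25 in mean log2 ratio, and Bcl3 relative to Stat3 overlapped.

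Of the other 6 genes, all but Lifr were called under at least 1 other normalization. The plot of fold changes under 3 normalizations shows Socs2 and Junb past the threshold on the lower side with each of them, and Gbx2 with TMM factors and after cyclic loess normalization. With library totals, 4 of the 9 genes (Il6st, Jak1, Stat3 and Bcl3) were called higher, where 35.8% of all tested genes were. After cyclic loess normalization, which was chosen after seeing the data because fold changes in these libraries varied with the level of a gene, 3 (Il6st, Stat3 and Socs3) were called higher, where 13.6% of all tested genes were, and the same 3 genes as in the main test were called lower, where 13.1% were. The median log2 fold change of all tested genes was 0.15 at mean log2 CPM of 3 to 4, -0.15 at 5 to 6 and -0.57 at 7 to 8, and it was -0.73 from 8 upward.

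**Figure D3:**
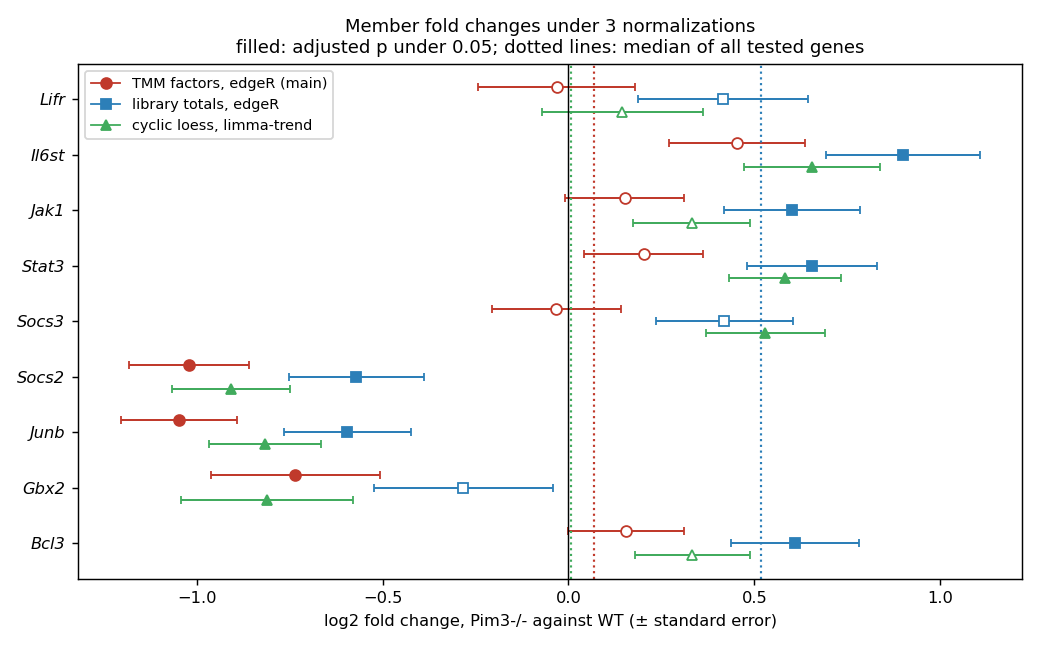
Log2 fold changes (Pim3-/- against WT) with standard errors for the 9 genes under TMM factors, library totals and cyclic loess normalization. Filled symbols have an adjusted p under 0.05, dotted lines mark the median of all tested genes (0.07, 0.52 and 0.01), and Socs2 and Junb are filled and below 0 in all 3.

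Levels were compared between genes per exon length, as TPM (counts per kilobase of merged exons scaled to the same sum in each library). These values are not TMM-scaled and serve only for the order within a group. In WT ESCs the order was Socs3 (137 TPM ± 13.5, SD, n = 2), Junb (48.1 ± 2.45), Bcl3 (23.7 ± 0.90), Stat3 (14.5 ± 1.28), Gbx2 (12.4 ± 0.74), Jak1 (8.24 ± 1.28), Socs2 (7.11 ± 0.77), Lifr (6.27 ± 1.35) and Il6st (5.17 ± 1.28). The values of neighbouring genes overlapped between libraries for Jak1 and Socs2, for Socs2 and Lifr and for Lifr and Il6st, but the order of these genes was the same within each WT library. In Pim3-/- ESCs it was Socs3 (208 TPM ± 4.87, SD, n = 2), Bcl3 (41.1 ± 0.76), Junb (36.2 ± 1.06), Stat3 (26 ± 0.21), Jak1 (14.2 ± 0.068), Gbx2 (11.6 ± 2.87), Il6st (10.9 ± 0.60), Lifr (9.44 ± 2.02) and Socs2 (5.44 ± 0.12). Here Gbx2 changed order with both Il6st and Lifr between the libraries. Gbx2, Il6st and Lifr were at 13.6, 10.5 and 8.02 TPM in Pim3-/- replicate 1 and at 9.58, 11.4 and 10.9 TPM in replicate 2. Il6st and Lifr overlapped, but Il6st was above Lifr within each library (10.5 over 8.02 TPM and 11.4 over 10.9 TPM). Socs3 was first in both groups, Bcl3 and Junb changed places, and Socs2 stood last only in Pim3-/- ESCs. The place of Socs2 depended on the length used, since with the longest transcript in place of merged exons it was at 12.8 TPM in WT, above Gbx2 at 10.1, and at 9.78 TPM in Pim3-/- ESCs, above Gbx2 at 9.47 and Lifr at 8.44.

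Promoter sequence is shown for Socs3, the abundant STAT3 target that was not called, and for Junb and Gbx2, which were lower. The promoters were taken from RefSeq (GRCm38.p6), where 8 of the 9 genes were matched, with 9 start sites since Lifr has a pair. The 250 bases before each start were searched on both strands for TTCNNNGAA, the palindromic STAT motif, for its stricter form TTCCNGGAA, every match of which also matches the first, and for the AP-1 motif TGANTCA. Each sequence is given 5′ to 3′ on the strand of the gene, in lower case, with the STAT motif in capitals. They lie at chr11:117969367-117969616, chr8:84978749-84978998 and chr1:89931177-89931426, all on the minus strand, and end at the last base before the start. The Socs3 window overlaps an exon of a noncoding Socs3 transcript in GENCODE M21, and that of Gbx2 overlaps 3 bases of a Gbx2 exon and exons of D130058E05Rik on the plus strand.
Socs3: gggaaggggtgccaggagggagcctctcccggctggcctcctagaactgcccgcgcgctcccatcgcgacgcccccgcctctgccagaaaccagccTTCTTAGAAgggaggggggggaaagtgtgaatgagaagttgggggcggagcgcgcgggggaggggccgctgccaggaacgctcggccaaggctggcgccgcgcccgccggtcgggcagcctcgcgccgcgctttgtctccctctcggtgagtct
Junb: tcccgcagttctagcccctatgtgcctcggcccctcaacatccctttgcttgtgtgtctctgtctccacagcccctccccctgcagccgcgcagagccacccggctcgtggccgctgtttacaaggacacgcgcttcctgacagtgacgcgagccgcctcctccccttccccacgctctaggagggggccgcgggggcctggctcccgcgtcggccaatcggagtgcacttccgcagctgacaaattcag
Gbx2: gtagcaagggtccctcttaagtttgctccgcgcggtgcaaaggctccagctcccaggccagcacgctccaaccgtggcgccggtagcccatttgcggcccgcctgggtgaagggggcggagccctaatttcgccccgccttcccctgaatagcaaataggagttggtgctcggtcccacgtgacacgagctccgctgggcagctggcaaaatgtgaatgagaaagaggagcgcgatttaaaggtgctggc
The match in Socs3 began 154 bases before the start and was the only one among the 9 promoters. Over the 32851 promoters of the table, 7.02% held TTCNNNGAA, 0.913% held TTCCNGGAA and 6.75% held TGANTCA, and neither of the latter was found in the 9. A match is a run of letters and not a binding site, and its absence from this window says nothing about STAT3 at Junb or Gbx2.

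The wider pathway was followed with 4 lists of genes. Among ligands and receptors of the IL-6 family, 14 were listed and 11 tested, of which 3 were higher (27.3%, against 17.6% of all tested genes) and 1 lower (9.09%, against 16.2%), with 7 not called. Lif itself rose from 24 and 35 counts in WT to 167 and 99 in Pim3-/- ESCs, or from 1.40 CPM ± 0.21 (SD, n = 2) to 5.05 CPM ± 1.71 (SD, n = 2), giving a log2 fold change of 1.84 (SE = 0.38, adjusted p = 0.0118 in edgeR). This is the transcript of the cytokine that was also added to the medium, and its log2 fold change was above 0 in 12 of 12 settings. Il6ra, the receptor chain that presents IL-6 to gp130, rose from 36 and 43 counts to 123 and 171 (1.57, SE = 0.33, adjusted p = 0.0126). The cytokine gene Clcf1 rose from 7 and 9 counts to 29 and 68 (2.27, SE = 0.59, adjusted p = 0.0236), but without Pim3-/- replicate 2 it was at 1.49 and after cyclic loess normalization it did not pass (adjusted p = 0.107 in limma). Ctf1, which encodes cardiotrophin, another ligand of LIFR, fell from 108 and 146 counts to 87 and 62 (-1.09, SE = 0.31, adjusted p = 0.0297), and not with library totals (adjusted p = 0.134). Il6, Osmr and Il31ra had at most 10 counts in any library and were not tested. The median log2 fold change of the list was 0.56.

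Of 13 genes for other JAKs, STATs and adaptors, all were tested, and 1 was higher (7.69%) and 2 lower (15.4%), shares that were 17.6% and 16.2% over all tested genes. Stat5b was counted 136 and 184 times in WT, against 299 and 444 times in Pim3-/- ESCs, giving a log2 fold change of 0.90 (SE = 0.27, adjusted p = 0.0391 in edgeR). Stat4 fell from 217 and 255 counts to 149 and 146 (-1.01, SE = 0.23, adjusted p = 0.0162), and Stat6, which relays IL-4 signals, from 1366 and 1509 to 882 and 1037 (-0.91, SE = 0.17, adjusted p = 0.00941). With library totals these lower calls were lost, and after cyclic loess normalization Stat5b was not called (0.75, adjusted p = 0.0692 in limma). Jak2, Jak3 and Tyk2, together with the adaptors Grb2, Gab1, Shc1, Sos1 and the phosphatase Ptpn11, were among the 10 genes not called. The list median was -0.13.

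Among 13 other inhibitors, comprising SOCS and PIAS genes, Cish and the phosphatases Ptpn1, Ptpn2 and Ptpn6, none was called by edgeR in either direction, where 17.6% of all tested genes were higher and 16.2% lower. Of these, 2 had an unadjusted p under 0.05, Socs4 (-0.65, adjusted p = 0.0556) and Cish (-0.64, adjusted p = 0.0788), and with DESeq2's size factors 1 was called lower, with library totals 4 were called higher and with the Wald test of DESeq2 0 were called. Socs4 and Cish were named after their values were seen. Log2 fold changes ran from -0.65 to 0.35, with a median of -0.06.

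**Figure D4:**
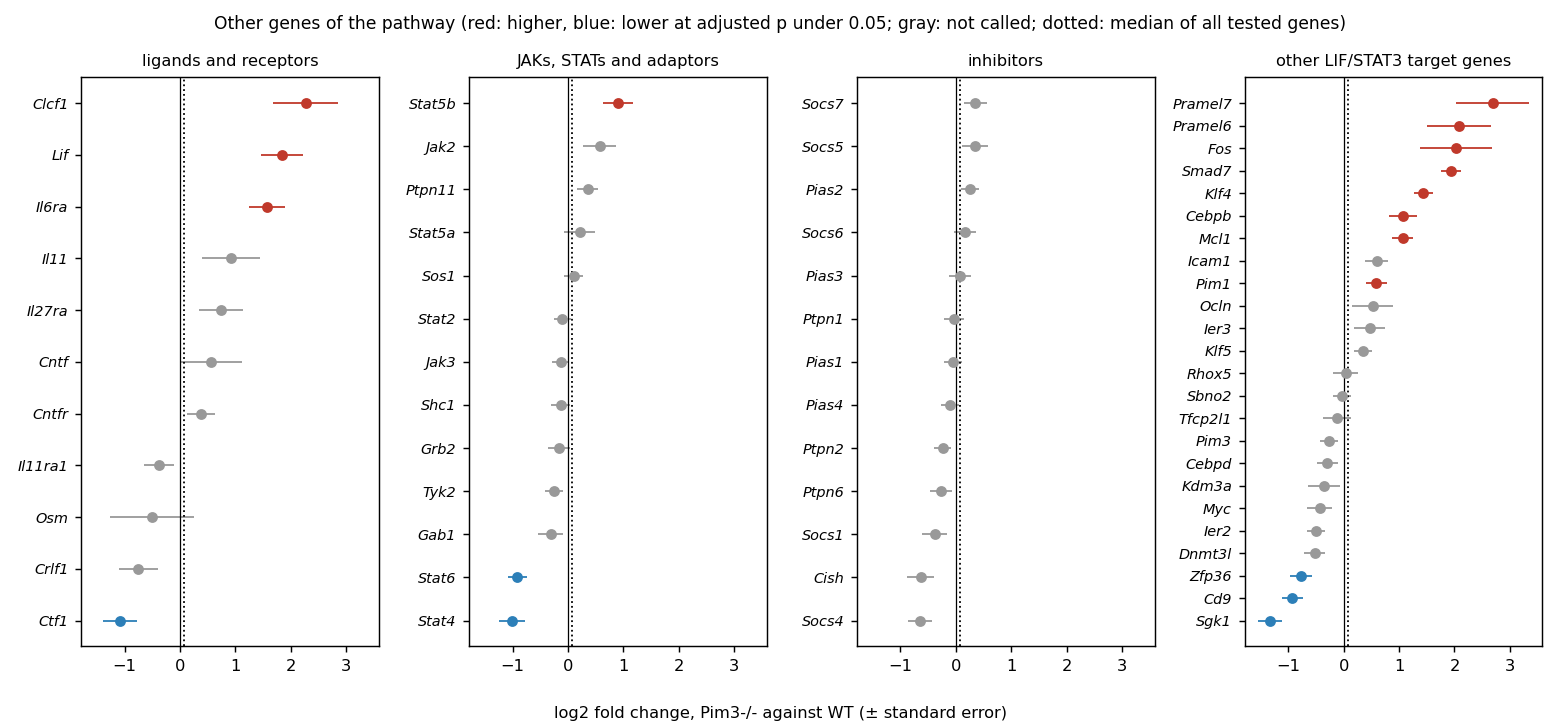
Log2 fold changes with standard errors for the tested genes of the 4 lists (11, 13, 13 and 24 genes), with genes higher at an adjusted p under 0.05 in red, lower ones in blue and others in gray. Calls fell on both sides among ligands and receptors, among JAKs, STATs and adaptors and among target genes, and the inhibitors held none.

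Among the other LIF/STAT3 target genes, calls fell on both sides. Of 24 genes, all tested, 8 were higher (33.3%, against 17.6% of all tested genes) and 3 lower (12.5%, against 16.2%), with 13 not called and a median log2 fold change of 0.19. Smad7, an inhibitor of TGF-β signalling, rose from 500 and 619 counts to 2386 and 2971, or from 26.7 CPM ± 0.87 (SD, n = 2) to 102 CPM ± 18.3 (SD, n = 2), giving a log2 fold change of 1.94 (SE = 0.19, adjusted p = 0.00284 in edgeR). Fos rose by the test (2.02, SE = 0.65, adjusted p = 0.046), from 56 and 76 counts to 116 and 548, but it rested on Pim3-/- replicate 2, without which it was at 0.47 (adjusted p = 0.196), and it did not pass in the Wald test of DESeq2 (adjusted p = 0.128) or after cyclic loess normalization (adjusted p = 0.146). Pramel7 was counted 4 and 4 times in WT, against 20 and 46 times in Pim3-/- ESCs (2.69, adjusted p = 0.0195) and Pramel6 10 and 10 against 31 and 76 (2.08, adjusted p = 0.0294), and both belong to a family of similar copies, so that their counts are uncertain. Without Pim3-/- replicate 2, Pramel7 was at 1.94 (adjusted p = 0.0311) and Pramel6 at 1.27 and not called (adjusted p = 0.0666). After cyclic loess normalization neither passed, with Pramel7 at 1.3 (adjusted p = 0.109 in limma) and Pramel6 at 1.14 (adjusted p = 0.137).

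Klf4, Mcl1 and Cebpb were named after their values were seen. The naive pluripotency factor Klf4 rose from 1204 and 1507 counts to 4937 and 4256, a 2.7-fold higher CPM (log2 fold change 1.44, SE = 0.17, adjusted p = 0.00369 in edgeR). The survival gene Mcl1 rose from 4665 and 5661 counts to 12591 and 14453 (1.06, adjusted p = 0.00817) and Cebpb from 97 and 95 to 246 and 265 (1.07, adjusted p = 0.0181). After cyclic loess normalization Mcl1 was at 1.68. Pim1 was counted 1776 and 2156 times in WT, against 3248 and 4146 times in Pim3-/- ESCs, at a log2 fold change of 0.59 (SE = 0.19, adjusted p = 0.0488), and it did not pass in the Wald test of DESeq2 (adjusted p = 0.0552), with DESeq2's size factors (adjusted p = 0.0617) or with no filter (adjusted p = 0.0749).

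On the lower side, Sgk1, which encodes a serum-responsive kinase, fell from 4414 and 5751 counts to 2152 and 2879 (-1.33, SE = 0.21, adjusted p = 0.00586 in edgeR). The surface protein gene Cd9 fell from 10557 and 11503 counts to 7272 and 7337 (-0.93, SE = 0.18, adjusted p = 0.0106), and Zfp36, whose product destabilizes mRNAs, from 430 and 489 to 314 and 361 (-0.77, SE = 0.20, adjusted p = 0.0219). With library totals, Cd9 and Zfp36 did not pass, and after cyclic loess normalization Cd9 was at -0.29 (adjusted p = 0.21 in limma). Pim3 was at a log2 fold change of -0.27 (adjusted p = 0.251) and became positive with library totals. Among the called genes of these lists, none passed without WT replicate 1, where the fit called 30 genes of the whole table, and Smad7 alone passed without WT replicate 2.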

How the data were processed

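RNA was sequenced from 2 cultures of WT and 2 clones of Pim3-/- E14 ESCs. The authors deposited raw counts per gene, 1 column per library, without normalization. The paper's methods name Cutadapt, Hisat2, mm10 and Ensembl genes, and the submitters' processing notes name Trim Galore, STAR, featureCounts and GRCm38. Which of these made the table, the strand setting and the treatment of reads with several locations are not given in the sources used here. The TE table was not used here.

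With edgeR 4.0.16, genes kept by filterByExpr (at least 10 counts, at least 15 in total) numbered 18444 of the 31418 with at least 1 count. They were scaled by TMM factors (0.828 to 1.172) and compared by the quasi-likelihood test of edgeR, p-values being Benjamini-Hochberg adjusted over all tested genes and standard errors taken from its F statistic. DESeq2 1.42.0, limma 3.58.1 (trend, cyclic loess, prior count 2), other scalings and filters, a block for the replicate number and the omission of each library were alternatives, which together with the main test make 12 settings. Programs ran in R 4.3.3 and Python 3.11.15 (matplotlib 3.10.9), and the fits were tested on simulated data. Lengths and positions came from GENCODE M21 (GRCm38), which held 18433 of the 18444 tested genes. With 2 libraries a side, the smallest two-sided p from exact permutation is 0.333, so none is given. Replicates were not duplicates, with a chi-square of 11.6 per gene between the WT and 55.7 between the Pim3-/- libraries.

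The genes and lists were chosen with earlier results of these data known, and 1 gene of the JAK, STAT and adaptor list is not reported here. Named in the text are the 9 genes, Pim1, Pim3, and up to 4 called genes per list and direction with the largest fold changes, unless stated otherwise.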

Additional observations from a re-analysis of the deposited data

How the results depend on the processing

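Depth was similar among libraries. These results are limited by the number of libraries, since 1 WT pair and 1 Pim3-/- pair set the spread, and by the scaling. TMM factors were 0.828 and 0.883 in WT against 1.168 and 1.172 in Pim3-/- libraries, and 24239 and 24696 genes had a count against 27383 and 27508. The scaling thus differed between the groups, and calls of several of the genes changed with it. Socs2 and Junb were lower in all settings and lost the call only without a WT library; with 1 library left out their log2 fold changes ran from -1.03 to -1.01 and from -1.09 to -0.99. Gbx2 ran from -0.98 to -0.53 and was not called with library totals (-0.28) or with at least 10 counts in every library (-0.66).

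With library totals, Lifr turned to 0.42 and Socs3 to 0.42, and Il6st (0.90), Jak1 (0.60), Stat3 (0.65) and Bcl3 (0.61) became called; Pim3 turned to 0.19. With at least 10 counts in every library, Lifr turned to 0.048 and Socs3 to 0.047. After cyclic loess normalization, chosen after seeing the data, Lifr was at 0.15, Socs3 at 0.53, Il6st at 0.66, Stat3 at 0.58 and Pim3 at 0.26. With 1 library left out, Lifr ran from -0.30 to 0.20, Il6st from 0.32 to 0.62, Jak1 from 0.10 to 0.21, Stat3 from 0.16 to 0.24, Socs3 from -0.088 to 0.02 and Bcl3 from 0.10 to 0.23.

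Of the 9 genes, library totals called 4 higher and cyclic loess 3; with 1 library left out, 0 to 1 were higher and 0 to 3 lower. Library totals called 5 ligands and receptors higher and 0 lower, and 4 JAKs, STATs and adaptors higher and 0 lower. They called 4 inhibitors higher and 0 lower, and 11 other targets higher and 1 lower. DESeq2 size factors called 1 inhibitor lower, and the Wald test of DESeq2 called 6 other targets higher and 5 lower. With 1 library left out, calls higher and lower ran from 0 to 4 and 0 to 2 for ligands and receptors, 0 to 2 and 0 to 5 for JAKs, STATs and adaptors, 0 to 1 and 0 to 3 for inhibitors and 0 to 11 and 0 to 7 for other targets. Over all genes, 3246 were higher and 2987 lower in the main test, 6606 and 1092 with library totals, 25 and 5 without WT replicate 1, 90 and 105 without WT replicate 2, 5383 and 5139 without Pim3-/- replicate 1 and 4844 and 4723 without Pim3-/- replicate 2. With the longest transcript, WT levels were 9.69 TPM for Jak1, 18.3 for Stat3, 12.8 for Socs2, 10.1 for Gbx2 and 25.3 for Bcl3.

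Replicate numbers did not pair the samples (deviations correlated at 0.02 over 18444 genes); with the replicate number as a block 3403 genes were higher and 3272 lower, the 9 genes again held 0 higher and 3 lower, and log2 fold changes were -1.02 for Socs2, -1.05 for Junb and -0.75 for Gbx2. The cause of these changes was not tested.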
